A study of Danio rerio with 28 samples.

Results

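The data described here are 4 of the 28 RNA-Seq libraries of a zebrafish heart study: 2 from wild-type (WT) fish at 7 days after resection of the ventricular apex (7 days post injury, dpi) and 2 from uninjured WT fish. They were chosen by their sample labels alone. The fish were adults of 4 to 6 months, about 20% of the apex of the ventricle was cut away, and each library was made from the pooled tissue of at least 5 fish. For WT 7 dpi the injured zone was collected, and for WT uninjured the ventricular apex, so that the groups differ in the tissue taken as well as in the injury. The study followed WT fish and fish with a mutation in thraa, a gene for thyroid hormone receptor alpha, without injury, 8 h post injury (hpi) and after 1, 3, 7 or 15 dpi. Besides the 4 libraries, the WT 3 dpi and WT 15 dpi libraries, 2 each, are used here to place 7 dpi in time. For the summed levels of some gene lists, the WT 8 hpi and WT 1 dpi libraries, 2 each, are used as well. The thraa 7 dpi and thraa uninjured libraries, 2 each, serve to compare the injury response between genotypes. The labels call those mutants knockouts, whereas the study's design gives them as heterozygotes, and they are written thraa+/- below.

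The adult zebrafish heart regrows muscle after loss of the apex. A clot at the wound is invaded by leukocytes and replaced by a transient matrix laid down by epicardial cells, fibroblasts and endocardium. Cardiomyocytes near the wound take apart some of their sarcomeres and divide, and the matrix is later removed. Heart muscle lives mainly on the oxidation of fatty acids in its many mitochondria. In RNA from bulk tissue, fewer cells of a type cannot be told apart from less RNA per cell.

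Total counts on genes were 15289588 and 13763468 in the WT 7 dpi libraries, against 14568130 and 13784782 in the WT uninjured libraries. The libraries of a pair differed by 2.13 times the variance of counting alone at 7 dpi and by 2.2 times in uninjured hearts. The p-values rest on the spread between libraries of pooled tissue, estimated over all 12 groups of the time course together. Those pairs differed more in other groups, by 8.68 times in WT 8 hpi and 23.9 times in thraa+/- 8 hpi. Heart genes were high in both groups: MYL7, cmlc1 and actc1a, which encode the regulatory and essential light chains of atrial and ventricular myosin and cardiac actin, were at 5953 CPM or more in each of the 4 libraries. CPM are counts scaled to a library of fixed size by the trimmed mean of M-values (TMM). TMM factors were 1.244 and 1.247 at 7 dpi, against 0.6865 and 0.6975 in uninjured hearts, where the 10 highest genes held 26.5% and 26.4% of the counts, compared with 19.5% in both 7 dpi libraries. The targeted receptor gene of the mutants, THRA (ENSDARG00000000151), was low in WT at either time, with 4.16 and 4.72 CPM at 7 dpi and 4.8 and 5.51 CPM uninjured, and did not pass the test (log2 fold change -0.22, SE 0.26, adjusted p = 0.48, or 0.63 when scaled by total counts). By limma on log2(TPM + 0.1), TPM being counts also scaled by transcript length, it was called higher (log2 fold change 1.13, adjusted p = 0.019).

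Of 17837 genes tested, 6736 (37.8%) were called in WT 7 dpi against WT uninjured at an adjusted p under 0.05 and a log2 fold change of at least 1 either way. Genes were tested by edgeR's quasi-likelihood test, and adjusted p-values are by Benjamini-Hochberg over all genes of a comparison. There were 4318 (24.2%) genes called higher and 2418 (13.6%) called lower, and the tested genes together had a median log2 fold change of 0.22. In 1106 of the called genes the uninjured libraries held 3 counts or fewer each, and in 127 the 7 dpi libraries did. A fold against such a group is given below as "at least", against a level of 3 counts per library. It bounds the observed fold from below, and it is rounded, so the bound may lie slightly under the value given. Where such a group held any count, its true level may lie above 3 counts. The fold is then no bound for counting error. Because 80.4% of all genes had libraries of the groups that did not overlap (46.5% higher at 7 dpi and 33.9% lower), the lack of overlap by itself sets no gene apart. Scaling by total counts instead of TMM moved the median up by 0.85 and split the calls into 8344 (46.8%) higher and 765 (4.29%) lower. The calls of a list by total counts are to be read against these shares. The median of a list is given as its distance from that of all genes, which this change of scale hardly moves. It ended the call of 16 of the named genes, all of them lower at 7 dpi with either scale, and added that of 6 others, all higher. Where the scale turned the balance of a list's calls, both counts are given.

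**Figure D1:**
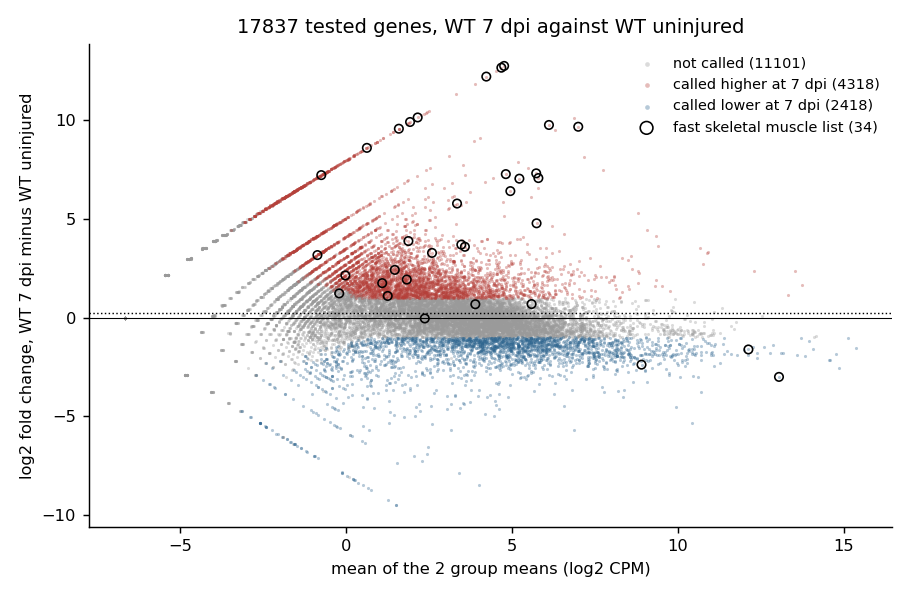
Log2 fold change of each of the 17837 tested genes in WT 7 dpi minus WT uninjured, against the mean of the group means in log2 CPM. Red points are the 4318 genes called higher and blue points the 2418 called lower, open circles mark the 34 tested fast skeletal muscle genes, and the dotted line is the median of 0.22; the straight diagonal rows are genes with 0 or few counts in 1 group, whose fitted fold changes are not bounds.

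Among called genes of at least 20 CPM at 7 dpi, 9 of the 15 largest fitted rises were of fast skeletal muscle. No level was required in uninjured hearts. The myosins, troponins and parvalbumins of that tissue are distinct from those of the heart. myhz2 (ENSDARG00000012944), a fast myosin heavy chain, had 52.5 and 56.7 CPM in the WT 7 dpi libraries, against no count in either uninjured library, and was at least 170-fold higher. myha and myhz1.1l, further myosin heavy chains, and MYL1 (ENSDARG00000014196), a fast myosin light chain, were likewise at 0 in both uninjured libraries and at least 170-, 150- and 120-fold higher. The parvalbumin gene pvalb2, whose product buffers calcium in fast fibres, had 138 and 141 CPM at 7 dpi, against 0 and 0.312 CPM uninjured, at least 450-fold higher. The libraries of a pair held these transcripts at nearly the same level.

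actc1b, an actin of skeletal and embryonic heart muscle, had 420.2 and 432 CPM at 7 dpi, against 2.4 and 2.29 CPM in uninjured hearts (log2 fold change 7.50, SE 0.13, adjusted p = 4.1e-37). MYL11, a fast regulatory light chain, had 291 and 288 CPM at 7 dpi, against 1.3 and 0.728 CPM uninjured (log2 fold change 8.14, SE 0.18, adjusted p = 6.5e-34). myhc4 had 257 and 256 CPM at 7 dpi, against 0 and 0.624 CPM uninjured. TNNT3 (ENSDARG00000068457), fast troponin T, had 103 and 109 CPM at 7 dpi, against 0.6 and 0.728 CPM uninjured. Thin filament and pump genes followed. tpma, an alpha-tropomyosin, had 91.4 and 88.8 CPM at 7 dpi, against 0.2 and 0.728 CPM uninjured. atp2a1l, a calcium pump of the fast fibre reticulum, had 55.5 and 56.9 CPM at 7 dpi, against 0.3 and 0.416 CPM uninjured. The 2 genes with the symbol TNNI2, fast troponin I, were both nearly silent in uninjured hearts. TNNI2 (ENSDARG00000035958) had 26.7 and 32.5 CPM at 7 dpi, against 0 CPM in both uninjured libraries, and was at least 95-fold higher. TNNI2 (ENSDARG00000029995) was at least 94-fold higher.

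Of the 34 tested genes of the fast skeletal muscle list, 27 were called higher and 3 lower. Their median was 4.11 above that of all genes. The genes myhz1.1l, MYL11, tpma, actc1b and TNNI2 are not members of that list. The 3 lower members, ckma (muscle creatine kinase) and the 2 genes with the symbol ACTA1, were also among the abundant transcripts of uninjured hearts. ACTA1 (ENSDARG00000055618) had 1873 and 1900 CPM at 7 dpi, against 14990 and 15270 CPM uninjured (log2 fold change -3, SE 0.073, adjusted p = 2.8e-32). ACTA1 (ENSDARG00000036371) had 154 and 157 CPM at 7 dpi, against 828 and 787 CPM uninjured. The whole list summed to 5500 and 5560 CPM at 7 dpi, against 22800 and 22700 CPM uninjured. Without ckma, ckmb and ACTA1, it summed to 1200 and 1210 CPM in the WT 7 dpi libraries, against 34.9 and 35.7 CPM in WT uninjured. The sums were 27.5 and 27.6 CPM in WT 8 hpi, 12.7 and 14.4 CPM in WT 1 dpi, and 16.6 and 16.1 CPM in WT 3 dpi libraries. In WT 15 dpi libraries they were 101 and 96.4 CPM. These sums were thus higher at 7 dpi than in any other WT group. Of myogenic regulators, chosen after their values were seen, MYOG (myogenin) had 5.16 and 4.2 CPM at 7 dpi, against 0.7 and 1.04 CPM uninjured. MYF5 had 0.842 and 1.52 CPM at 7 dpi, against 0 CPM in both uninjured libraries, whereas MYOD1 had 4.1 and 6.18 CPM at 7 dpi, against 5.1 and 5.41 CPM uninjured, and was not called. Where these transcripts came from was not tested. Requiring at least 10 counts in every library left 5 of the list's genes, those also present in uninjured hearts, with a median 1.51 below that of all genes.

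**Figure D2:**
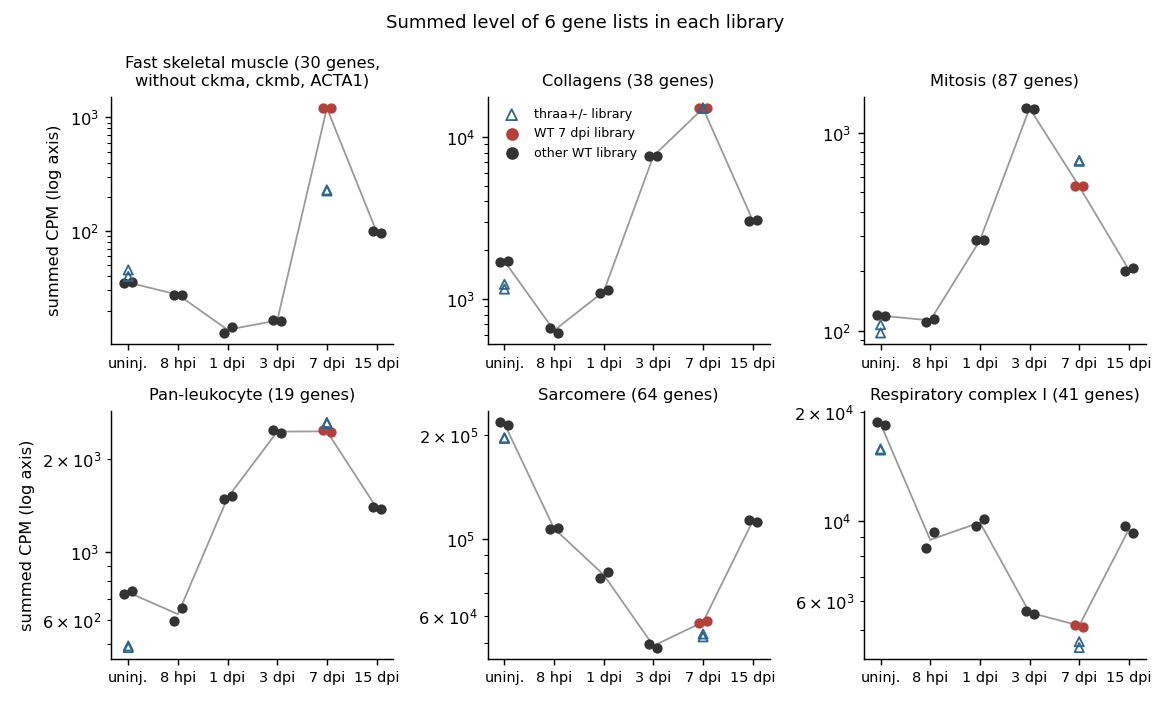
Summed CPM, on a log axis, of 6 gene lists in each library over the WT time course from uninjured to 15 dpi, with the thraa+/- libraries at uninjured and 7 dpi as open triangles; lines join the means of the 2 WT libraries. Fast skeletal muscle genes stood at 1200 and 1210 CPM in the WT 7 dpi libraries (red), without ckma, ckmb and ACTA1, above all other WT libraries, collagens were also highest there, and mitosis genes peaked at 3 dpi.

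Genes of the extracellular matrix formed the next group of large changes. Collagens are the fibres of scar and wound matrix, and 28 of 38 tested collagen genes were called higher at 7 dpi and none lower, with a median 2.58 above that of all genes. The fibrillar genes COL1A2, col1a1a and COL1A1 of type I collagen were among the 10 genes with the largest rise in CPM. COL1A2 had 2999 and 3040 CPM at 7 dpi, against 253 and 262 CPM uninjured (log2 fold change 3.55, SE 0.072, adjusted p = 4.7e-35). col1a1a had 3512 and 3486 CPM at 7 dpi, against 339 and 350.2 CPM uninjured. COL1A1 had 3410 and 3479 CPM at 7 dpi, against 354 and 358 CPM uninjured. The libraries of a pair were nearly equal and the groups far apart in each case.

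Collagen genes nearly silent in the uninjured apex had the largest folds. col11a1b (ENSDARG00000009014), which controls the width of type I fibrils, had 235 and 233 CPM at 7 dpi, against 0.2 and 0.208 CPM uninjured, at least 750-fold higher. COL12A1 (ENSDARG00000019601), a collagen that links fibrils, had 157 and 156 CPM at 7 dpi, against 0.3 and 0.104 CPM uninjured, at least 500-fold higher, and COL11A1 was at least 74-fold higher. All 38 collagen genes together reached 15000 CPM in both 7 dpi libraries, against 1700 and 1720 CPM uninjured. Of 36 genes for the folding and crosslinking of collagen, 19 were called higher and 1 lower, with a median 1.12 above that of all genes. LOX, the lysyl oxidase that crosslinks collagen and elastin, had 33.3 and 38.5 CPM at 7 dpi, against 1.7 and 2.81 CPM uninjured (log2 fold change 3.99, SE 0.2, adjusted p = 2.7e-21). pcolcea, which enhances cleavage of procollagen, had 245 and 256 CPM at 7 dpi, against 65.7 and 65.6 CPM uninjured (log2 fold change 1.93, SE 0.069, adjusted p = 1.7e-26).

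Of 48 tested genes for other matrix proteins, 36 were called higher and none lower, with a median 2.11 above that of all genes. Fibronectin, on which epicardial cells and cardiomyocytes move in the regenerating heart, is encoded by FN1 (ENSDARG00000006526), which had 3022 and 2995 CPM at 7 dpi, against 446 and 468 CPM uninjured (log2 fold change 2.72, SE 0.076, adjusted p = 3.9e-30). POSTN (ENSDARG00000104267) encodes periostin, a product of activated fibroblasts, and had 1249 and 1255 CPM at 7 dpi, against 102 and 103 CPM uninjured (log2 fold change 3.61, SE 0.073, adjusted p = 4.1e-35). SPARC, a collagen-binding protein, had 1124 and 1113 CPM at 7 dpi, against 366 and 377 CPM uninjured (log2 fold change 1.59, SE 0.072, adjusted p = 9.9e-23). THBS4 (ENSDARG00000020072), a thrombospondin of injured heart and tendon, had 71.5 and 74.3 CPM at 7 dpi, against 0.2 and 0.416 CPM uninjured. elnb, an elastin, had 26.6 and 25.9 CPM at 7 dpi, against 0.6 and 0 CPM uninjured. THBS4 stood at 78.7 and 81.4 CPM in the WT 15 dpi libraries, and its difference at 7 dpi from 15 dpi did not pass the test (log2 fold change -0.13, SE 0.11, adjusted p = 0.32).

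Genes that degrade matrix rose as well. Of 34 tested metalloproteinases and their tissue inhibitors, 23 were called higher and 1 lower. mmp13b, a collagenase, had 32.3 and 33.1 CPM at 7 dpi, against 0.1 and 0 CPM uninjured, at least 100-fold higher. MMP2, the gelatinase A of stromal cells, had 759.6 and 741 CPM at 7 dpi, against 145 and 149 CPM uninjured (log2 fold change 2.35, SE 0.069, adjusted p = 2.8e-29). MMP9, gelatinase B of leukocytes, had 38.4 and 43.1 CPM at 7 dpi, against 7.4 and 5.51 CPM uninjured (log2 fold change 2.65, SE 0.12, adjusted p = 3.1e-22). The inhibitor gene TIMP2 (ENSDARG00000075261) had 131 and 125 CPM at 7 dpi, against 18.7 and 24.1 CPM uninjured (log2 fold change 2.58, SE 0.089, adjusted p = 6.5e-27). Proteases and an inhibitor of them were thus higher side by side.

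**Figure D3:**
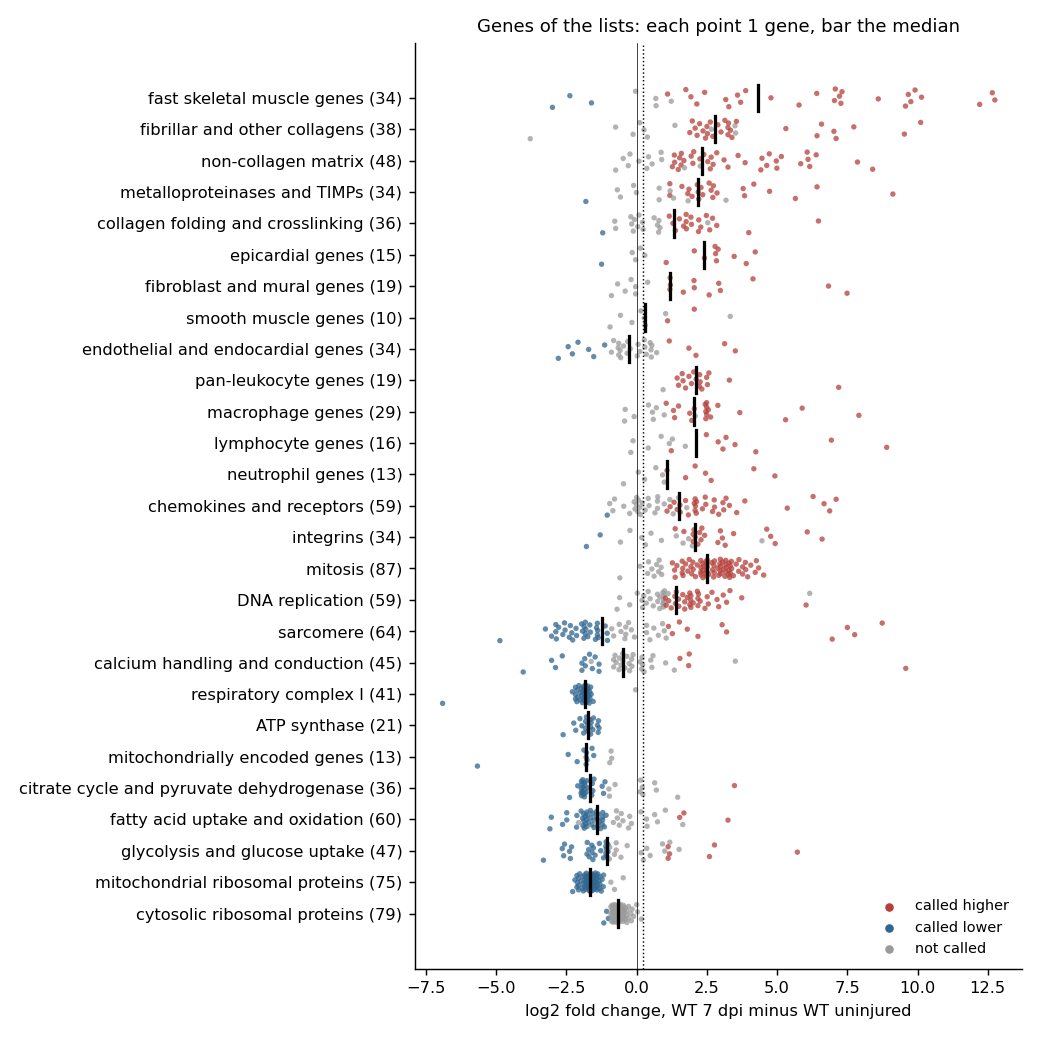
Log2 fold change in WT 7 dpi minus WT uninjured of each tested gene of 27 lists, with the number of tested genes in brackets; red points were called higher, blue lower and grey not called, black bars are list medians, and the dotted line is the median of all tested genes, 0.22. Skeletal muscle, matrix, leukocyte and mitosis lists lie to the right, and lists of mitochondrial genes to the left.

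Epicardial genes, which mark the outer layer of the heart that supplies fibroblasts and mural cells after injury, were called higher in 10 of 15 cases and lower in 1, with a median 2.19 above that of all genes. The epicardial transcription factor genes wt1b, TBX18 and TCF21 were each called. wt1b had 24.2 and 23.9 CPM at 7 dpi, against 2.9 and 3.95 CPM uninjured (log2 fold change 2.81, SE 0.18, adjusted p = 2.2e-17). TBX18 had 29.3 and 26.6 CPM at 7 dpi, against 4.5 and 6.03 CPM uninjured (log2 fold change 2.41, SE 0.19, adjusted p = 6.8e-15). TCF21 had 23.8 and 23.9 CPM at 7 dpi, against 10.2 and 12.8 CPM uninjured (log2 fold change 1.05, SE 0.15, adjusted p = 3.7e-08), a call lost without WT uninjured replicate 1 (log2 fold change 0.87, adjusted p = 9.3e-05). CLU, the extracellular chaperone clusterin, was abundant, with 655 and 637 CPM at 7 dpi, against 89 and 83.6 CPM uninjured (log2 fold change 2.90, SE 0.082, adjusted p = 5.5e-30). In contrast, podxl, podocalyxin of the epicardial surface, fell to 215 and 226 CPM at 7 dpi, against 518 and 534 CPM uninjured (log2 fold change -1.25, SE 0.072, adjusted p = 2.7e-19). ALDH1A2, which makes retinoic acid in activated epicardium and endocardium, had 228 and 221 CPM at 7 dpi, against 235 and 226 CPM uninjured, and was not called (log2 fold change -0.04, SE 0.065, adjusted p = 0.61, or 0.81 by total counts).

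Among 19 fibroblast and mural genes, 12 were called higher and none lower. MDK (ENSDARG00000036036) encodes midkine, a secreted growth factor, and had 1232 and 1241 CPM at 7 dpi, against 69.4 and 71.4 CPM uninjured (log2 fold change 4.14, SE 0.085, adjusted p = 6.5e-35). fap, fibroblast activation protein, and PRRX1 (ENSDARG00000042027), a fibroblast transcription factor gene, were at 3 counts or fewer in each uninjured library and at least 59- and 34-fold higher. Of 10 smooth muscle genes, 2 (20%) were called higher, near the 24.2% of all genes, and none lower (6 and 0 by total counts), with a median 0.07 above that of all genes. The called ones were TAGLN, transgelin, and LMOD1. TAGLN (ENSDARG00000045408) had 332 and 327 CPM at 7 dpi, against 77.4 and 81.5 CPM uninjured (log2 fold change 2.05, SE 0.12, adjusted p = 1.2e-11). LMOD1 (ENSDARG00000077261) had 5.21 and 6.24 CPM at 7 dpi, against 1.9 and 3.43 CPM uninjured (log2 fold change 1.1, SE 0.3, adjusted p = 0.0017). The LMOD1 call was lost without WT uninjured replicate 1 (log2 fold change 0.70, adjusted p = 0.1) and without WT 7 dpi replicate 2 (0.97, adjusted p = 0.021). acta2, smooth muscle actin and a common mark of myofibroblasts, had 117 and 122 CPM at 7 dpi, against 95.5 and 98.1 CPM uninjured, and was not called (log2 fold change 0.30, SE 0.08, adjusted p = 0.0012, or 1.15 and called by total counts).

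Leukocyte genes were higher at 7 dpi. Of 19 genes of a pan-leukocyte list, 18 were called higher and none lower, with a median 1.90 above that of all genes. That list includes cd74a of MHC class II and is not limited to genes shared by all leukocytes. Of 29 macrophage genes 20 were called higher and none lower, with a median 1.83 above that of all genes. The genes for complement component C1q, which macrophages make and which tags debris for uptake, changed alike. c1qc had 159 and 158 CPM at 7 dpi, against 29.5 and 29 CPM uninjured (log2 fold change 2.44, SE 0.098, adjusted p = 1.7e-22), while c1qa and c1qb had log2 fold changes of 2.55 and 2.49. MFAP4 (ENSDARG00000090783), in zebrafish a macrophage marker, had 74 and 78.6 CPM at 7 dpi, against 13.2 and 13.9 CPM uninjured (log2 fold change 2.49, SE 0.11, adjusted p = 4e-20). itgb2, the common chain of leukocyte integrins, had 109.7 and 110.4 CPM at 7 dpi, against 18.3 and 25.8 CPM uninjured. rac2, a small GTPase of leukocytes, had 48.2 and 49.6 CPM at 7 dpi, against 8.1 and 8.32 CPM uninjured. The lipid carrier gene apoeb, an apolipoprotein E of macrophages and other cells, was chosen after its values were seen and had 107 and 110.3 CPM at 7 dpi, against 1 and 1.25 CPM uninjured (log2 fold change 6.59, SE 0.15, adjusted p = 5.1e-33).

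Against WT 3 dpi, 8 of the 29 macrophage genes were called lower and 1 higher, where 9.92% of all genes were called lower and 13.3% higher. The list summed to 1360 CPM in both 7 dpi libraries, against 2310 and 2210 CPM at 3 dpi. Neutrophil genes were called higher in 7 of 13 cases against uninjured hearts, and 6 were called lower against 3 dpi. The 7 included cxcl8a, whose call was lost without WT 7 dpi replicate 1, WT uninjured replicate 1 or WT uninjured replicate 2 (adjusted p = 0.27, 0.22 and 0.064). Of the 6, cxcl8a and cxcl8b.1, chemokine genes that draw neutrophils, had log2 fold changes of -2.38 and -3.11 from 3 dpi. lyz, lysozyme, had 19.1 and 14.6 CPM at 7 dpi, against 8.1 and 9.78 CPM uninjured, short of the fold needed for a call (log2 fold change 0.92, SE 0.22, adjusted p = 0.001). It was called by total counts (log2 fold change 1.76), by limma on log2(TPM + 1) and log2(TPM + 0.1), where TPM are counts also scaled by transcript length (1.76 and 1.81), with a filter of 10 counts in each library (1.12), and without WT 7 dpi replicate 2 (1.1) or WT uninjured replicate 2 (1.04). npsn, a neutrophil protease gene, had 9.05 and 9.15 CPM at 7 dpi, against 7.8 and 7.18 CPM uninjured, and was called only by total counts (1.13).

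Of 16 lymphocyte genes, 9 (56.2%) were called higher, where 24.2% of all genes were, and none lower. B cell genes were among them. The list was low, with sums of 26.6 and 25.5 CPM in the uninjured libraries, and its count depended on the processing. DESeq2, which kept 28 of its genes, called 6 higher. With a filter of 10 counts in each library, 1 of 3 was called higher. ighm, the immunoglobulin M heavy chain, had 69 and 68.1 CPM at 7 dpi, against 9 and 9.36 CPM uninjured (log2 fold change 2.90, SE 0.14, adjusted p = 1e-21). cd79a and cd79b, the signalling chains of the B cell receptor, were at least 23- and 12-fold higher, from levels of 1 count or none per uninjured library. ighm was also higher than at 3 dpi, by 3.01 on the log2 scale (SE 0.13, adjusted p = 1.4e-22), and than at 15 dpi, by 1.48 (SE 0.12, adjusted p = 5.9e-14). Of 22 genes for antigen presentation, 9 (40.9%) were called higher, against 24.2% of all genes, and none lower. cd74a, the invariant chain of MHC class II, had 983 and 955 CPM at 7 dpi, against 317 and 313 CPM uninjured (log2 fold change 1.62, SE 0.078, adjusted p = 6.7e-22). ciita, the master regulator of that class, had 11.4 and 9.85 CPM at 7 dpi, against 1.1 and 0.728 CPM uninjured (log2 fold change 3.52, SE 0.4, adjusted p = 4.3e-10). In contrast b2m, the light chain of MHC class I, had 724 and 724 CPM at 7 dpi, against 1126 and 1103 CPM uninjured, and was not called (log2 fold change -0.62, SE 0.072, adjusted p = 5.5e-10, or 0.23 by total counts).

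Of 63 lysosomal genes, 18 (28.6%) were called higher, not far from the 24.2% of all genes, and 4 lower (33 and 0 by total counts). Of 17 complement genes, 10 were called higher and none lower, and of 59 genes for chemokines and their receptors 32 were called higher and 1 lower. CXCR4 (ENSDARG00000041959), the receptor of the chemokine CXCL12, had 111 and 113 CPM at 7 dpi, against 26.4 and 25.1 CPM uninjured (log2 fold change 2.12, SE 0.1, adjusted p = 4.2e-22). Of 19 cytokine genes, 5 (26.3%) were called higher, near the 24.2% of all genes, and none lower. il1b, which starts acute inflammation, had 3.63 and 4.14 CPM at 7 dpi, against 0.9 and 1.67 CPM uninjured (log2 fold change 1.6, SE 0.31, adjusted p = 1.9e-05). It was lower than at 3 dpi by a log2 fold change of -2.38 (SE 0.17, adjusted p = 1.6e-15). tnfa, tumour necrosis factor, had 0.789 and 0.758 CPM at 7 dpi, against 0 CPM in both uninjured libraries, and 35.2 and 31.8 CPM at 3 dpi. il6 was barely detected, with 0.158 and 0.117 CPM at 7 dpi, against 0.1 and 0.416 CPM uninjured, and was not called. tgfb1a (ENSDARG00000041502), a transforming growth factor that drives matrix synthesis, had 27.6 and 28.3 CPM at 7 dpi, against 14 and 14.2 CPM uninjured (log2 fold change 0.98, SE 0.12, adjusted p = 3.3e-09), just under the fold needed for a call, and was called by total counts (1.83), on both TPM scales (1.35 and 1.66), with a filter of 10 counts in each library (1.19) and without WT 7 dpi replicate 1 (1). Of 34 integrin genes, whose products hold cells to matrix and to each other, 21 were called higher and 2 lower. itga2b, the platelet fibrinogen receptor chain, had 80.4 and 78.1 CPM at 7 dpi, against 16.3 and 16 CPM uninjured (log2 fold change 2.29, SE 0.11, adjusted p = 2e-22). By contrast, ITGA5, the chain that binds fibronectin, fell to 140.0 and 142 CPM at 7 dpi, against 500.2 and 476 CPM uninjured (log2 fold change -1.79, SE 0.071, adjusted p = 6.3e-25).

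Of 87 mitosis genes, 76 were called higher and none lower, with a median 2.29 above that of all genes. Of 59 DNA replication genes, 35 were called higher and none lower, with a median 1.19 above it. CDK1, the kinase that starts mitosis, had 14.6 and 14.6 CPM at 7 dpi, against 2 and 1.67 CPM uninjured (log2 fold change 2.99, SE 0.21, adjusted p = 3.2e-16), and its partner cyclins CCNB1, with 11.4 and 9.85 CPM at 7 dpi, against 1.9 and 1.35 CPM uninjured, and CCNA2, with 8.84 and 8.63 CPM at 7 dpi, against 1.9 and 1.14 CPM uninjured, were called too. RRM2 (ENSDARG00000020711), which supplies the building blocks of DNA, had 44.8 and 46.8 CPM at 7 dpi, against 5 and 5.83 CPM uninjured (log2 fold change 3.08, SE 0.13, adjusted p = 6.7e-24). PCNA, the sliding clamp of DNA polymerase, had 75.8 and 77.3 CPM at 7 dpi, against 39.2 and 40.9 CPM uninjured (log2 fold change 0.93, SE 0.1, adjusted p = 1.7e-09), short of a call, and was called by total counts (1.78), on both TPM scales (1.66 and 1.7) and with a filter of 10 counts in each library (1.14).

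Against 3 dpi, 66 of the 87 mitosis genes were called lower and none higher, and 15 of the 59 replication genes lower. The mitosis list summed to 537 and 536 CPM at 7 dpi, against 1340 and 1330 CPM at 3 dpi, and CDK1 had 53.7 and 48.6 CPM at 3 dpi. Against 15 dpi, 69 mitosis genes were called higher and none lower, where 15.5% of all genes were called higher, and their sum at 15 dpi was 199 and 207 CPM. Which cells divided cannot be read from bulk RNA. Of 30 cell cycle inhibitors and genes of early G1 phase, 7 (23.3%) were called higher, near the 24.2% of all genes, and 2 lower. CCNG1, a p53 target, fell to 897 and 879 CPM at 7 dpi, against 2408 and 2467 CPM uninjured (log2 fold change -1.46, SE 0.074, adjusted p = 3.8e-21).

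Sarcomere genes of the heart fell. Of 64 tested sarcomere genes, 35 were called lower and 11 higher, with a median 1.47 below that of all genes, and by total counts the calls were 20 lower and 18 higher. actc1a (ENSDARG00000042535) had 8790 and 8771 CPM at 7 dpi, against 51470 and 51150 CPM uninjured (log2 fold change -2.55, SE 0.08, adjusted p = 2.7e-28). MYL7 (ENSDARG00000019096), the regulatory light chain of heart myosin, had 8992 and 9195 CPM at 7 dpi, against 41040 and 39230 CPM uninjured (log2 fold change -2.14, SE 0.077, adjusted p = 2.4e-26). cmlc1, the essential light chain, had 6039 and 5953 CPM at 7 dpi, against 23690 and 22930 CPM uninjured (log2 fold change -1.96, SE 0.098, adjusted p = 1.8e-16). The myosin heavy chain gene MYH7 (ENSDARG00000079782) had 12080 and 12310 CPM at 7 dpi, against 43560 and 43060 CPM uninjured (log2 fold change -1.83, SE 0.069, adjusted p = 1.3e-25). TNNT2 (ENSDARG00000020610), cardiac troponin T, had 1904 and 1880 CPM at 7 dpi, against 7047 and 6855 CPM uninjured (log2 fold change -1.88, SE 0.084, adjusted p = 4.6e-22).

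Not every heart myosin gene fell with them. MYH6 (ENSDARG00000079564), an atrial-type heavy chain, had 1814 and 1852 CPM at 7 dpi, against 1076 and 1071 CPM uninjured, higher but short of the fold needed for a call (log2 fold change 0.77, SE 0.066, adjusted p = 1.3e-13, or 1.62 and called by total counts, and 1.48 and 1.49 on the TPM scales). It was higher than at 3 dpi by 1.31 (SE 0.067, adjusted p = 2.6e-20). The 11 sarcomere genes called higher included actc1b, MYL2 and myl4, of which MYL2 and myl4 were at 0 in both uninjured libraries and at least 11- and 5.5-fold higher. Fast skeletal muscle genes moved with these, as their sums above show, and their part in the 11 was not tested. Against 3 dpi, 18 of the 64 sarcomere genes were called higher and 5 lower, where 13.3% of all genes were called higher and 9.92% lower. The list summed to 57300 and 58000 CPM at 7 dpi, against 49700 and 48600 CPM at 3 dpi and 114000 and 112000 CPM at 15 dpi, and only 3 dpi was lower among the 6 WT groups. CRYAB, a small heat shock protein of the sarcomere, fell to 1.31 and 1.11 CPM at 7 dpi, against 35.5 and 35.9 CPM uninjured (log2 fold change -4.87, SE 0.2, adjusted p = 5.2e-24), and was also lower than at 3 dpi (-2.14) and 15 dpi (-4.95).

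Genes of calcium handling and conduction were called lower in 13 of 45 cases and higher in 4, with a median 0.71 below that of all genes. Total counts gave 7 lower and 13 higher, where 4.29% of all genes were called lower and 46.8% higher. CASQ2 (ENSDARG00000008982), calsequestrin, the calcium store of the heart reticulum, had 234 and 233 CPM at 7 dpi, against 1908 and 1922 CPM uninjured (log2 fold change -3.03, SE 0.071, adjusted p = 8e-33). atp2a2a, the heart calcium pump SERCA2, had 1361 and 1408 CPM at 7 dpi, against 4906 and 4943 CPM uninjured (log2 fold change -1.83, SE 0.066, adjusted p = 3.5e-26). pln2, a phospholamban gene whose family restrains that pump, had 20.1 and 21.3 CPM at 7 dpi, against 160.2 and 152 CPM uninjured, and was among the 110 genes lowest at 7 dpi. The 2 genes with the symbol CASQ1, the skeletal calsequestrin, moved in opposite directions. CASQ1 (ENSDARG00000038716) had 5.42 and 6.71 CPM at 7 dpi, against 0 CPM in both uninjured libraries, at least 19-fold higher. CASQ1 (ENSDARG00000018105) had 64.1 and 65.1 CPM at 7 dpi, against 194 and 192 CPM uninjured (log2 fold change -1.58, SE 0.088, adjusted p = 6e-18).

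Of 40 cardiac transcription and stress genes, 16 (40%) were called higher and 9 (22.5%) lower, against 24.2% and 13.6% of all genes (22 and 3 by total counts). TBX20, a T-box factor of heart growth, had 8.47 and 6.18 CPM at 7 dpi, against 0.5 and 0.208 CPM uninjured (log2 fold change 4.33, SE 0.56, adjusted p = 1.1e-08). RUNX1, active in injured cardiomyocytes and endocardium, and SRF (ENSDARG00000053918), the serum response factor of muscle genes, were at least 8.2- and 6.6-fold higher at low levels. The natriuretic peptide genes nppa and nppb are known as marks of a stressed heart. nppa was not called, with 3188 and 3206 CPM at 7 dpi, against 3795 and 3739 CPM uninjured (log2 fold change -0.24, SE 0.072, adjusted p = 0.0042, or 0.61 by total counts). nppb fell to 441 and 431 CPM at 7 dpi, against 1285 and 1250 CPM uninjured (log2 fold change -1.54, SE 0.078, adjusted p = 5.4e-21). The nppb call was lost by total counts (-0.69) and on both TPM scales (-0.7 and -0.71). The secreted factor gene BMP10 (ENSDARG00000109233), which supports trabecular growth, fell to 27.6 and 29.8 CPM at 7 dpi, against 199 and 187 CPM uninjured (log2 fold change -2.75, SE 0.09, adjusted p = 1e-27). A gene with the same symbol, BMP10 (ENSDARG00000061769), had 9.63 and 12.07 CPM at 7 dpi, against 1.6 and 1.46 CPM uninjured (log2 fold change 2.82, SE 0.4, adjusted p = 5e-07). NPR3, a receptor that clears natriuretic peptides, fell to 1.79 and 2.33 CPM at 7 dpi, against 43.7 and 44.1 CPM uninjured (log2 fold change -4.42, SE 0.18, adjusted p = 1.5e-24).

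**Figure D4:**
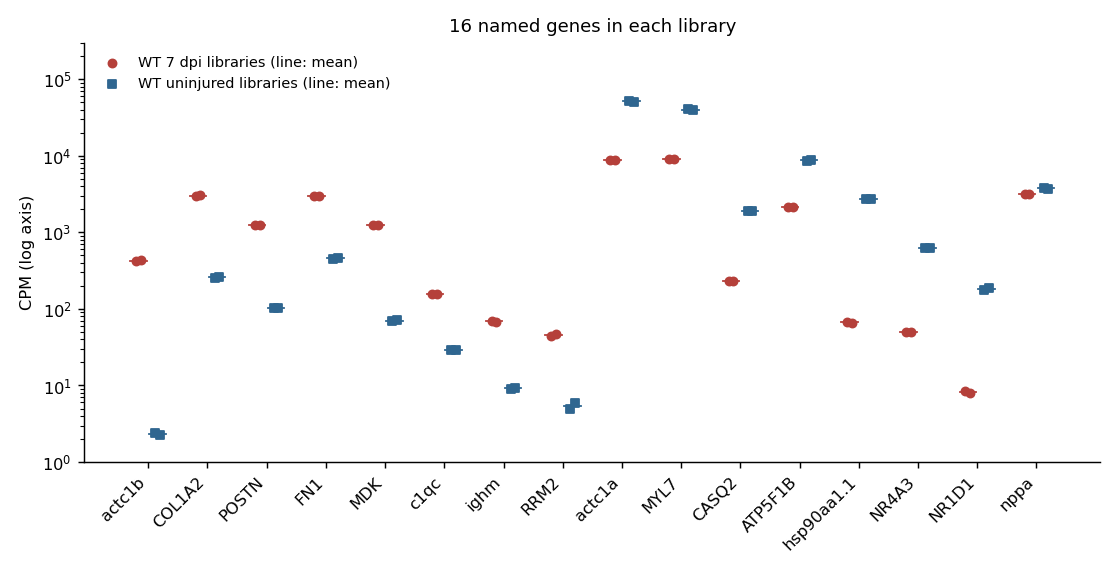
CPM, on a log axis, of 16 named genes in each library, with WT 7 dpi as red circles on the left and WT uninjured as blue squares on the right of each pair, and the mean of each pair of libraries as a line. The genes actc1b, MDK and those of matrix, immune cells and replication were higher at 7 dpi, actc1a, MYL7, NR4A3 and genes of the calcium store, ATP synthase, chaperone and clock were lower, and nppa differed least, with 3188 and 3206 CPM at 7 dpi, against 3795 and 3739 CPM uninjured.

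Most nuclear genes for the mitochondrion fell. Of 41 genes listed by symbol under respiratory complex I, 40 were called lower and none higher, with a median 2.06 below that of all genes. All 15 genes of complexes II and III and all 21 genes of the ATP synthase were called lower, and 15 of 21 genes of complex IV, with medians 2.1, 1.95 and 1.75 below it. Of 75 mitochondrial ribosomal protein genes, 72 were called lower and none higher, with a median 1.87 below it. By total counts fewer were called lower, 20 for complex I, 9 for complexes II and III, 6 for the ATP synthase, 7 for complex IV (and 1 higher) and 17 for the ribosome, where 4.29% of all genes were. Medians relative to all genes were the same to within 0.1, but a change of scale shifts all genes nearly alike and so could hardly move them. On log2(TPM + 1) they were -1.48 for complex I, -1.57 for complexes II and III, -1.36 for the ATP synthase and -0.83 for complex IV.

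ATP5F1B (ENSDARG00000070083), the catalytic beta subunit of the ATP synthase, had 2132 and 2148 CPM at 7 dpi, against 8611 and 8774 CPM uninjured (log2 fold change -2.02, SE 0.073, adjusted p = 2.5e-26). NDUFA4, a respiratory chain subunit, had 687 and 659.6 CPM at 7 dpi, against 2370 and 2347 CPM uninjured (log2 fold change -1.81, SE 0.088, adjusted p = 2.4e-19). UQCRFS1, the iron-sulfur protein of complex III, had 367 and 358 CPM at 7 dpi, against 2001 and 2029 CPM uninjured (log2 fold change -2.47, SE 0.08, adjusted p = 6.9e-28). SLC25A5 (ENSDARG00000092553), the carrier that exchanges ADP and ATP across the inner membrane, had one of the largest losses in level, with 8991 and 8954 CPM at 7 dpi, against 39510 and 39570 CPM uninjured (log2 fold change -2.14, SE 0.079, adjusted p = 5.6e-26). The log2 fold changes of these genes lay near those of the cardiac myosin light chains. The myoglobin gene mb (ENSDARG00000031952), for the oxygen store of heart muscle, had 23850 and 23790 CPM at 7 dpi, against 48790 and 48200 CPM uninjured (log2 fold change -1.03, SE 0.067, adjusted p = 2.9e-17). Its call was lost by total counts (log2 fold change -0.18), on both TPM scales (-0.2) and with a filter of 10 counts in each library (-0.82).

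Genes encoded in the mitochondrion itself were called lower in 10 of 13 cases (4 by total counts), with a median 2.01 below that of all genes, and their share of all counts was 9.58% and 9.49% at 7 dpi, against 14.7% and 14.5% uninjured. MT-CO1, a subunit of cytochrome oxidase, had 21830 and 21930 CPM at 7 dpi, against 63820 and 62170 CPM uninjured (log2 fold change -1.53, SE 0.068, adjusted p = 4.7e-23). MT-ND4, of complex I, had 4141 and 4133 CPM at 7 dpi, against 14330 and 14460 CPM uninjured (log2 fold change -1.80, SE 0.067, adjusted p = 9.5e-26). MT-CO2, MT-CO3 and MT-ND3 had log2 fold changes of -0.91, -0.96 and -0.89 and stayed short of a call.

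Of 36 genes of the citrate cycle and pyruvate dehydrogenase, 25 were called lower and 1 higher (14 and 6 by total counts). Of 60 genes of fatty acid uptake and oxidation, 39 were called lower and 3 higher (13 and 8 by total counts). MDH2, a malate dehydrogenase of the cycle, had 1499 and 1500 CPM at 7 dpi, against 5637 and 5638 CPM uninjured (log2 fold change -1.91, SE 0.075, adjusted p = 4.4e-25). ACADVL, which starts the oxidation of long fatty acids, had 935 and 917 CPM at 7 dpi, against 3154 and 3201 CPM uninjured (log2 fold change -1.78, SE 0.065, adjusted p = 4.3e-26). The 1 higher cycle gene, PDK1, encodes a kinase that shuts pyruvate dehydrogenase and had 6.89 and 8.05 CPM at 7 dpi, against 1.1 and 0.208 CPM uninjured (log2 fold change 3.48, SE 0.44, adjusted p = 4.8e-09). Glycolysis and glucose uptake genes were called lower in 26 of 47 cases and higher in 6, with a median 1.29 below that of all genes. By total counts 5 were called lower and 14 higher, where 4.29% of all genes were called lower and 46.8% higher. GAPDH, the abundant enzyme of the middle of the pathway, had 9866 and 9805 CPM at 7 dpi, against 22230 and 22310 CPM uninjured (log2 fold change -1.18, SE 0.082, adjusted p = 5.1e-16), a call lost by total counts (-0.33), on both TPM scales (-0.4) and with a filter of 10 counts in each library (-0.97). Both genes with the symbol SLC2A1, the glucose transporter GLUT1, were called higher. SLC2A1 (ENSDARG00000001437) had 17.7 and 20.9 CPM at 7 dpi, against 0.3 and 0.416 CPM uninjured (log2 fold change 5.72, SE 0.36, adjusted p = 8.4e-18). SLC2A1 (ENSDARG00000007412) had 43.5 and 41.2 CPM at 7 dpi, against 7.8 and 6.24 CPM uninjured (log2 fold change 2.59, SE 0.44, adjusted p = 0.00019). In the pentose phosphate pathway, which yields NADPH and ribose, 2 of 9 genes were called higher and 1 lower (4 and 0 by total counts). These calls lay near the shares of all genes, 24.2% higher and 13.6% lower. Cytosolic ribosomal protein genes shifted together but mostly short of the fold for a call, with a median log2 fold change of -0.66 and quartiles of -0.81 and -0.49. By total counts the median was 0.19. Of the 79, 3 were called lower and none higher, with a median 0.88 below that of all genes, and 1 was called higher and none lower by total counts.

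The 15 largest fitted falls among called genes of at least 20 CPM in uninjured hearts included hsp90aa1.1, hspb6, dnaja and NR1D1. hsp90aa1.1 (ENSDARG00000010478), a muscle chaperone that folds myosin in zebrafish, had 66.6 and 66.5 CPM at 7 dpi, against 2696 and 2712 CPM uninjured (log2 fold change -5.34, SE 0.079, adjusted p = 1e-39). hspb6, a small heat shock protein of muscle, had 84.8 and 82 CPM at 7 dpi, against 1964 and 1832 CPM uninjured (log2 fold change -4.51, SE 0.073, adjusted p = 2e-38). dnaja, a co-chaperone, had 2.21 and 1.63 CPM at 7 dpi, against 49.4 and 45.2 CPM uninjured (log2 fold change -4.61, SE 0.22, adjusted p = 3.7e-22). Each of these chaperone genes fell by over 4 on the log2 scale. NR4A3, an orphan nuclear receptor gene induced by stress, fell to 50.4 and 49.6 CPM at 7 dpi, against 634 and 616 CPM uninjured (log2 fold change -3.64, SE 0.071, adjusted p = 1.1e-35). Of 41 clock genes, 11 (26.8%) were called lower and 13 (31.7%) higher, where 13.6% and 24.2% of all genes were. By total counts 5 were called lower and 16 higher, where 4.29% and 46.8% of all genes were. The repressor gene NR1D1 fell to 8.52 and 7.87 CPM at 7 dpi, against 178 and 187 CPM uninjured (log2 fold change -4.47, SE 0.13, adjusted p = 8.1e-30). In contrast, BMAL1 (ENSDARG00000035732), which it represses in mammals, was at least 21-fold higher, with 6.84 and 6.12 CPM at 7 dpi, against 0.1 and 0.104 CPM uninjured. The time of day at which the fish were sampled is not given in the sources used here, so the injury cannot be told apart from a difference in hour.

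Other steep falls were in single genes. IGFBP2 (ENSDARG00000052470), a secreted carrier of insulin-like growth factors, had 0 and 0.175 CPM at 7 dpi, against 31 and 33.9 CPM uninjured, at least 190-fold lower. ctrb.1, a chymotrypsinogen of the pancreas, was at least 120-fold lower, from 19.3 and 22.9 CPM uninjured, and had 57.6 and 55.3 CPM at 15 dpi. CHD5, a chromatin remodeller gene, had 0.684 and 2.04 CPM at 7 dpi, against 45.2 and 40.8 CPM uninjured (log2 fold change -5, SE 0.25, adjusted p = 5.3e-21). DGAT1 (ENSDARG00000103503), which makes triglyceride, had 1.79 and 0.758 CPM at 7 dpi, against 24.7 and 26.1 CPM uninjured (log2 fold change -4.29, SE 0.27, adjusted p = 1.2e-17). Among steep rises outside the groups above, GDA, guanine deaminase, had 20.9 and 19.5 CPM at 7 dpi, against 0 CPM in both uninjured libraries, at least 65-fold higher.

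Vessel and hypoxia genes were split or lower. Of 34 endothelial and endocardial genes, 5 (14.7%) were called higher and 7 (20.6%) lower, where 24.2% and 13.6% of all genes were. Their median lay 0.50 below that of all genes. By total counts 13 were called higher and 4 lower, where 46.8% and 4.29% of all genes were. The 2 genes with the symbol VEGFA, vascular endothelial growth factor, fell alike. VEGFA (ENSDARG00000034700) had 112 and 112 CPM at 7 dpi, against 533 and 543 CPM uninjured (log2 fold change -2.27, SE 0.071, adjusted p = 2.6e-28). VEGFA (ENSDARG00000103542) had 24.1 and 21.6 CPM at 7 dpi, against 116 and 110.0 CPM uninjured (log2 fold change -2.30, SE 0.084, adjusted p = 3.6e-26). Their receptor gene flt1 fell to 49.3 and 48.3 CPM at 7 dpi, against 266 and 264 CPM uninjured (log2 fold change -2.44, SE 0.075, adjusted p = 1.6e-28). NOTCH1 (ENSDARG00000052094), which acts in endocardium and valves, had 37 and 35.9 CPM at 7 dpi, against 9.3 and 10.8 CPM uninjured (log2 fold change 1.86, SE 0.34, adjusted p = 0.00026).

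Of 26 genes for hypoxia-inducible factors and their regulators, 8 were called lower and 2 higher. Total counts gave 3 lower and 10 higher, where 4.29% of all genes were called lower and 46.8% higher. The 2 genes with the symbol EPAS1, for the factor HIF-2 alpha, were both called lower. EPAS1 (ENSDARG00000057671) had 52.8 and 46.9 CPM at 7 dpi, against 141 and 135 CPM uninjured (log2 fold change -1.47, SE 0.075, adjusted p = 5.3e-21). EPAS1 (ENSDARG00000008697) had 12.6 and 10.3 CPM at 7 dpi, against 27.8 and 37.4 CPM uninjured (log2 fold change -1.5, SE 0.15, adjusted p = 1.5e-11). EGLN3, a prolyl hydroxylase that marks these factors for decay, fell to 16 and 16.4 CPM at 7 dpi, against 69.7 and 67.6 CPM uninjured (log2 fold change -2.08, SE 0.095, adjusted p = 1.2e-22). HIF1A (ENSDARG00000034293) had 159 and 165 CPM at 7 dpi, against 313 and 316 CPM uninjured (log2 fold change -0.96, SE 0.069, adjusted p = 8e-16), just short of a call.

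In TGF-beta, activin and BMP signalling, 14 of 55 genes (25.5%) were called higher and 5 (9.09%) lower, near the 24.2% and 13.6% of all genes, and 29 and 3 by total counts. The 2 genes with the symbol TGFBR2, the ligand-binding TGF-beta receptor, differed. TGFBR2 (ENSDARG00000059363) had 25.1 and 24.3 CPM at 7 dpi, against 3.8 and 3.43 CPM uninjured (log2 fold change 2.77, SE 0.41, adjusted p = 3.7e-05). In contrast, TGFBR2 (ENSDARG00000034541) had 66.1 and 59.9 CPM at 7 dpi, against 112 and 132 CPM uninjured and was not called (log2 fold change -0.95, SE 0.087, adjusted p = 7.7e-13), but was called lower without WT 7 dpi replicate 1 (-1.03) or WT uninjured replicate 1 (-1.1). Of 51 Wnt genes, 17 (33.3%) were called higher and 9 (17.6%) lower, against 24.2% and 13.6% of all genes (29 and 3 by total counts). SFRP2, a secreted modulator of Wnt ligands, had 18.1 and 16.6 CPM at 7 dpi, against 0.1 and 0 CPM uninjured, at least 56-fold higher, and no count in either WT 3 dpi library. Growth factors and their receptors were called higher in 20 of 64 cases (31.2%) and lower in 17 (26.6%), against 24.2% and 13.6% of all genes. By total counts the calls were 34 and 9, against 46.8% and 4.29% of all genes. Of 25 Notch genes 6 (24%) were called higher, near the share of all genes, and 1 lower (13 and 0 by total counts), this 1 under the symbol DLD, which also names a subunit of pyruvate dehydrogenase. Of 26 retinoic acid genes, 10 (38.5%) were called higher and 2 (7.69%) lower. Of 56 genes of the non-muscle cytoskeleton 21 (37.5%) were called higher and 4 (7.14%) lower. Both are to be read against 24.2% and 13.6% of all genes. Of 38 immediate early genes, AP-1 factors among them, 10 (26.3%) were called higher and 4 (10.5%) lower, near the shares of all genes.

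In the thyroid hormone axis, the pathway of the receptor mutated in the study's other genotype, 7 of 14 genes were called higher and 1 lower. THRB (ENSDARG00000021163), thyroid hormone receptor beta, had 18.8 and 19.6 CPM at 7 dpi, against 8.1 and 7.8 CPM uninjured (log2 fold change 1.27, SE 0.17, adjusted p = 1.8e-08). DIO1, a deiodinase that turns thyroxine into the active hormone, fell to 14.3 and 16 CPM at 7 dpi, against 60.7 and 53.2 CPM uninjured (log2 fold change -1.91, SE 0.11, adjusted p = 5.9e-19). SLC16A10, a thyroid hormone transporter, had 27.1 and 28 CPM at 7 dpi, against 10.7 and 6.87 CPM uninjured (log2 fold change 1.64, SE 0.16, adjusted p = 8.4e-12). The deiodinase genes DIO2 and dio3b were at 0 in both uninjured libraries and had 0.368 and 0.816 CPM and 0.368 and 1.4 CPM at 7 dpi.

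Of 20 erythroid and thrombocyte genes, 5 (25%) were called higher, near the share of all genes, and 1 (5%) lower. Of all genes, 24.2% were called higher and 13.6% lower. Globin transcripts were among the 10 genes with the largest rise in CPM. hbaa1 (ENSDARG00000097011), an alpha globin, had 14090 and 13970 CPM at 7 dpi, against 6385 and 6305 CPM uninjured (log2 fold change 1.15, SE 0.082, adjusted p = 1.1e-15). HBE1 (ENSDARG00000089087), a beta-type globin, had 21230 and 20990 CPM at 7 dpi, against 6629 and 6686 CPM uninjured (log2 fold change 1.67, SE 0.11, adjusted p = 8.9e-12). Globin genes lie in near-identical copies, between which the counting could split reads, so the values of single copies are uncertain. Of 32 skin epithelial genes 6 (18.8%) were called higher and 2 (6.25%) lower, both under the shares of all genes. Of 17 liver and yolk genes 2 (11.8%) were called higher and 5 (29.4%) lower, and of 12 neural and glial genes 1 (8.33%) higher and 4 (33.3%) lower. By total counts the calls higher and lower of the lists, in this order, were 14 and 1, 4 and 3, and 5 and 2. Skin genes summed to 2830 and 2840 CPM at 7 dpi, against 3450 and 3340 CPM uninjured, liver and yolk genes to 1330 CPM in both 7 dpi libraries, against 641 and 660 CPM uninjured, and neural and glial genes to 39.9 and 43.3 CPM at 7 dpi, against 175 and 187 CPM uninjured. The medians lay 0.58 above that of all genes for skin, 0.46 below for liver and yolk and 0.31 above for neural and glial genes. In each of these lists the median thus went the other way from the sum. The part of these tissues in the results was not tested. SYT1, a synaptic vesicle protein, fell to 9.47 and 9.85 CPM at 7 dpi, against 67.7 and 66.7 CPM uninjured (log2 fold change -2.80, SE 0.11, adjusted p = 1.5e-25), and the liver marker fabp10a was at 0 at 7 dpi, against 1.2 and 0.832 CPM uninjured.

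Set against its neighbours in time, WT 7 dpi differed from WT 3 dpi in 4142 genes (23.2%), 2373 (13.3%) higher and 1769 (9.92%) lower, and from WT 15 dpi in 3865 (21.7%), 2758 (15.5%) higher and 1107 (6.21%) lower. There were 1054 genes (5.91%) called higher at 7 dpi than in uninjured, 3 dpi and 15 dpi hearts alike, and 110 (0.617%) called lower than in all of these. Of those higher and with at least 20 CPM at 7 dpi, the 10 with the largest margin were all muscle genes: myha, myhz2, atp2a1l, myhc4, both TNNI2 genes, TNNT3, pvalb2, tpma and actc1b. The last of them, actc1b, lay 3.89 above 15 dpi on the log2 scale (SE 0.09, adjusted p = 1.9e-32). The 110 lowest included ctrb.1, IGFBP2, pln2, CRYAB and hspb6. Of the 34 skeletal muscle genes, 31 were called higher than at 3 dpi and none lower, and 29 higher than at 15 dpi and 1 lower. Of the 38 collagen genes, 20 were called higher than at 3 dpi and 1 lower, and 25 higher than at 15 dpi and 1 lower.

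Few genes of the respiratory chain differed between 7 dpi and 3 dpi. Of the 41 complex I genes, 1 was called lower than at 3 dpi and none higher, and 8 lower than at 15 dpi. ATP5F1B had 2237 and 2221 CPM at 3 dpi and 4297 and 3880 CPM at 15 dpi. Of 68 genes of endoplasmic reticulum folding and secretion, 38 were called lower than at 3 dpi and 1 higher, and against uninjured hearts 5 lower and 9 higher. Interferon response genes also stood below 3 dpi, with 11 of 32 called lower and none higher. Against uninjured hearts 7 (21.9%) were called higher, near the 24.2% of all genes, and 1 lower.

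The response to injury at 7 dpi differed between thraa+/- and WT in 2260 genes (12.7%), 1139 (6.39%) with a larger value in thraa+/- and 1121 (6.28%) with a smaller one, in a test of the difference of the responses. These values are log2 fold changes with their sign, so for a gene that fell, a smaller value is a steeper fall. Of fast skeletal muscle genes, 14 of 34 had a smaller value in thraa+/- and 1 a larger one. Their sum without ckma, ckmb and ACTA1 was 225 and 230 CPM in the thraa+/- 7 dpi libraries, against 1200 and 1210 CPM in WT 7 dpi, and 45.5 and 39.9 CPM in thraa+/- uninjured, against 34.9 and 35.7 CPM in WT uninjured. actc1b had 81.3 and 90.6 CPM in thraa+/- 7 dpi, against 420.2 and 432 CPM in WT 7 dpi (difference of responses -3.71, SE 0.23, adjusted p = 3.9e-17). ighm was also lower, with 17.1 and 17.3 CPM in thraa+/- 7 dpi, against 69 and 68.1 CPM in WT 7 dpi, and 7.63 and 9.09 CPM in thraa+/- uninjured, against 9 and 9.36 CPM in WT uninjured (difference of responses -1.86, SE 0.21, adjusted p = 2.7e-09).

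Macrophage genes went the other way, with a larger value in thraa+/- for 16 of 29 and a smaller one for none. So did those of the non-muscle cytoskeleton, for 16 of 56 and none. The macrophage list summed to 1910 and 1950 CPM in thraa+/- 7 dpi, against 1360 CPM in both WT 7 dpi libraries, and to 191 and 199 CPM in thraa+/- uninjured, against 392 and 398 CPM in WT uninjured, so that the sums of the genotypes lay the other way round before injury. POSTN had 1747 and 1797 CPM in thraa+/- 7 dpi, against 1249 and 1255 CPM in WT 7 dpi, and 42.5 and 42.4 CPM in thraa+/- uninjured, against 102 and 103 CPM in WT uninjured (difference of responses 1.78, SE 0.099, adjusted p = 1.8e-18). nppb had 473 and 497 CPM in thraa+/- 7 dpi, against 441 and 431 CPM in WT 7 dpi, and 166 and 179 CPM in thraa+/- uninjured, against 1285 and 1250 CPM in WT uninjured (3.03, SE 0.11, adjusted p = 2.7e-24). Genes of complexes II and III and of the ATP synthase had none called either way. In thraa+/-, 1 of 41 complex I genes and 2 of 21 complex IV genes had a larger value and none a smaller one. The 13 mitochondrially encoded genes fell in WT, with a median log2 fold change of -1.79. Of these 13, 2 had a smaller value in thraa+/-, a steeper fall, and none a larger one. Their median difference lay 0.79 below that of all genes. Before injury they held 21.9% and 21.2% of the counts in thraa+/-, against 14.7% and 14.5% in WT. At 7 dpi the shares were 8.55% and 8.51% in thraa+/-, against 9.58% and 9.49% in WT, so that the genotypes lay further apart before injury.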

How the data were processed

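RNA-Seq libraries of pooled ventricle tissue were sequenced as paired reads of 150 bases. Per the study's methods the authors trimmed reads with Trim Galore 0.6.10, aligned them to GRCz11 with STAR 2.7.9 and counted them with RSEM 1.3.3, whose expected counts and TPM per gene they deposited. Expected counts were rounded to whole numbers. Genes were filtered by filterByExpr, scaled by TMM and fitted in edgeR 4.0.16 (R 4.3.3) by a robust quasi-likelihood model over the 24 time-course libraries in 12 groups, without covariates, and 17837 of 32520 genes were tested. The cutoffs, an adjusted p under 0.05 and a log2 fold change of at least 1, are those of the study. Each library is given as 1 biological replicate, made from a pool of at least 5 fish, and p-values rest on the spread between such libraries, estimated over the 12 groups together. Levels between genes are not compared by CPM, which ignores gene length. The library totals allow a count of 0 to stand for up to 3 counts, or 0.175 CPM at 7 dpi and 0.312 CPM uninjured, for counting error only.

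The members of the 52 gene lists, matched by symbol, and the comparisons were chosen with earlier results of these data known. Genes are named by rule. The 15 largest folds each way were taken among called genes of at least 20 CPM in the higher group, with libraries that do not overlap. Also named are the 10 largest CPM differences each way, up to 6 called or most abundant genes of each list and any gene of a list of at most 15. The 10 highest and lowest at 7 dpi, genes the study names, and genes of the same symbol complete them. Alternatives were total-count scaling, size factors of DESeq2 and its test (1.42.0), no filter or at least 10 counts in every library, only WT or only the compared groups, replicate number as a block, limma 3.58.1 on log2(TPM + 1) and log2(TPM + 0.1), no fold cutoff and leaving out each library. Alternatives for the comparison of genotypes were added after seeing the data. Scripts were tested on simulated data. A result that a list or rule would name may be not reported here. Symbols are as the deposited table gives them, so a zebrafish gene may carry the symbol of its human counterpart.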

Additional observations from a re-analysis of the deposited data

Results flagged for a closer look

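The response to injury at 7 dpi, WT 7 dpi against WT uninjured, was set against the same response in thraa+/- by an interaction term in edgeR, and it differed in 2260 (12.7%) of the genes tested. Of 148 named genes, 54 were among them, 32 with a larger value in thraa+/- and 22 with a smaller one. Many named genes were chosen by their values in the WT 7 dpi and WT uninjured libraries, which also enter this difference. Their count therefore cannot be set against the share of all genes. The values below are differences of the responses on the log2 scale, thraa+/- minus WT. Such a difference can lie in the uninjured libraries of the genotypes as well as in those of 7 dpi. Several rest on a group with few or no counts, where the fitted value is no bound.

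Of skeletal muscle genes, the difference was -5.51 for pvalb2, -7.93 for MYL1 (ENSDARG00000014196), -7.12 for myhz1.1l, -6.39 for myhc4, -6.12 for TNNI2 (ENSDARG00000029995), -5.97 for tpma, -4.79 for atp2a1l, -3.71 for actc1b, -3.47 for MYL11, -2.35 for TNNT3 (ENSDARG00000068457), -11.44 for CASQ1 (ENSDARG00000038716) and -1.34 for MYOD1. It was 1.71 for ACTA1 (ENSDARG00000036371), an actin gene also active in heart, and -9.77 for myl4, counted above among the sarcomere genes.

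Of matrix, epicardial and mural genes, it was 1.59 for FN1, 1.78 for POSTN, 1.06 for SPARC, 1.95 for LOX, 2.67 for TIMP2, 5.36 for COL12A1, 3.19 for wt1b, 1.15 for TCF21, 2.34 for ALDH1A2, 1.06 for MDK, 2.39 for TAGLN, 1.29 for acta2 and -3.59 for PRRX1. Of immune genes, it was 1.82 for c1qa, 1.67 for c1qb, 1.5 for c1qc, 1.19 for MFAP4, 2.00 for lyz, 1.95 for cxcl8a, -1.86 for ighm, -2.63 for ciita and 1.51 for the integrin gene ITGA5.

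Of heart and stress genes, it was 3.03 for nppb, 2.05 for NPR3, -2.72 for TBX20, -1.84 for BMP10 (ENSDARG00000061769), 1.51 for hspb6, 1.12 for dnaja and 1.41 for NR4A3. Of vessel, hypoxia and metabolic genes, it was 1.12 and 1.45 for the 2 VEGFA genes (ENSDARG00000034700 and ENSDARG00000103542), 3.29 for EGLN3, -3.49 for SLC2A1 (ENSDARG00000001437), -2.12 for PDK1, -1.18 for MT-ND3 and 1.54 for SLC16A10. Of the remaining genes, it was -6.17 for GDA, 5.89 for ctrb.1, 2.74 for CHD5 and 2.99 for SYT1.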

How the results depend on the processing

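With 2 libraries a group, an exact permutation test of a single gene cannot give a p under 0.333, so the calls rest on the fit over all genes. Over 148 named genes and their alternatives, 2047 of 2159 values kept their direction and their side of the threshold. The counts and medians of lists were less stable: of 1952 values, 1462 stayed about the same, 489 moved and 1 reversed. On log2(TPM + 1) the relative median was 1.08 for collagens, 0.78 for mitosis and 0.26 for lymphocyte genes, against 2.58, 2.29 and 1.89. For pan-leukocyte genes it was higher, at 2.14 against 1.90. Total counts ended the calls of ITGA5, both EPAS1 genes, ACADVL, CASQ1 (ENSDARG00000018105), atp2a2a, podxl, mb, ckma, GAPDH, nppb, MT-CO1, MT-ND4, CCNG1, MYH7 and NDUFA4, and added those of npsn, tgfb1a, acta2, PCNA, lyz and MYH6. Leaving out 1 library added calls of lyz (1.1 without WT 7 dpi replicate 2, 1.04 without WT uninjured replicate 2), TGFBR2 (ENSDARG00000034541; -1.03 without WT 7 dpi replicate 1, -1.1 without WT uninjured replicate 1), tgfb1a (1 without WT 7 dpi replicate 1) and MT-CO3 (-1.01 without WT uninjured replicate 2). The call of cxcl8a was lost with DESeq2 (adjusted p = 0.069), with only the 2 compared groups (0.096) and without WT 7 dpi replicate 1, WT uninjured replicate 1 or WT uninjured replicate 2 (0.064 to 0.27). On both TPM scales the calls of both EPAS1 genes, CASQ1 (ENSDARG00000018105), atp2a2a, podxl, mb, ckma, GAPDH, nppb, MT-CO1, CCNG1 and NDUFA4 were lost. On log2(TPM + 1) those of DIO2 and dio3b were lost as well. The cause of these changes was not tested.

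Against uninjured, the 6736 called genes became 3576 with at least 10 counts in every library and 10925 by adjusted p alone. The 4318 higher became 8344 by total counts, 2097 with 10 counts and 7635 by limma on log2(TPM + 0.1). The 2418 lower became 765, 1479 and 832 under these settings, 586 by limma on log2(TPM + 1) and 4870 by adjusted p alone. Leaving out 1 library gave 6116 to 6437 calls, 3641 to 4073 higher and 2349 to 2475 lower. Against 3 dpi, 10 counts, log2(TPM + 1) and adjusted p alone gave 1823, 2136 and 9426 calls (1083, 1132 and 4523 higher, 740, 1004 and 4903 lower), and leaving out 1 library 3692 to 3879 (2026 to 2171 higher, 1666 to 1708 lower). Against 15 dpi they gave 1518, 1921 and 8836 calls (1074, 1628 and 4666 higher, 444, 293 and 4170 lower), total counts and log2(TPM + 0.1) gave 494 and 533 lower, and leaving out 1 library 3428 to 3508 (2360 to 2439 higher, 1057 to 1092 lower). Genes highest or lowest at 7 dpi numbered 346, 633 and 3302 (319, 618 and 1824 highest, 27, 15 and 1478 lowest), with 57 and 54 lowest by total counts and log2(TPM + 0.1), and 992 to 1033 without 1 library (889 to 931 highest, 99 to 122 lowest). Differences between genotypes numbered 1461, 1287 and 4696 (723 and 2510 with a larger value in thraa+/- by 10 counts and adjusted p alone, 738, 463 and 2186 with a smaller one), and 1996 to 2061 without 1 library (1076 to 1112 larger, 886 to 980 smaller).

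The median of the fast skeletal muscle list turned to -1.51 relative to all genes with 10 counts, where 5 of its genes were left. The other reversals were in genes not called in the main fit. Of these, THRA passed both cutoffs in the other direction on log2(TPM + 0.1) by limma (adjusted p = 0.019). By total counts, log2(TPM + 1) and log2(TPM + 0.1), the log2 fold change was 0.63, 0.84 and 1.13 for THRA, 0.81, 0.51 and 0.67 for MYOD1, 0.61, 0.52 and 0.53 for nppa, 0.23, 0.26 and 0.26 for b2m, and 0.81, 0.69 and 0.70 for ALDH1A2, which was at 0.16 with 10 counts. MT-ND3 was at 0.53 on both TPM scales, il6 at 0.14 on log2(TPM + 0.1), while leaving out 1 library ranged from -1.57 to 0.42 for il6 and from -0.36 to 0.23 for MYOD1. A fit with replicate number as a block gave 6721 calls (4310 higher, 2411 lower), 6700 of them among the 6736. The deviations of same-numbered WT 7 dpi and WT uninjured libraries correlated at 0.023 across genes. Of the 66 pairs of groups, 1 lay over 0.1, WT 8 hpi and thraa+/- 8 hpi, at 0.37. With 2 libraries a group, much of the deviation is counting error. A low correlation therefore cannot show that the numbers did not pair the libraries.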
